A study of Homo sapiens with 6 samples.

Results

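The RNA splicing factor genes examined here were the names in the deposited lists that begin with SRSF, HNRNP, SNRP, SF3A, SF3B, PRPF or U2AF, each followed by the digits or letters of a family member. SNRPN and antisense names were left out. The rule found 67 of 16500 distinct names, and it used names only. The lists came from BE(2)-C, a human neuroblastoma cell line that carries extra copies of MYCN, treated for 24 hours with a control siRNA or with WDR5 siRNA-1. WDR5 is a core subunit of the complexes that methylate lysine 4 of histone H3. Trimethylation of that residue (H3K4me3), a mark of active promoters, was measured by chromatin immunoprecipitation and sequencing in 1 library per siRNA, and a gene was listed when a peak lay within 1 kb of its transcription start site. Separate tables gave 3254 promoters bound by N-Myc, the MYC-family factor encoded by MYCN, and 6331 not bound by it. With 1 library per siRNA, no difference below has a replicate check and no p-value is given. The lists hold no peak height, read number or depth, so a listed name is a call and not a level.

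Splicing removes introns from precursor RNA in a stepwise assembly. The U1 particle recognises the start of the intron, U2AF and the U2 particle recognise its end and branch site, and the U4, U5 and U6 particles then form the catalytic spliceosome. SR proteins and hnRNP proteins bind exons and introns and influence which splice sites are used. Splicing factors are widely expressed, and MYC-family factors are known to raise the transcription of several of them.

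The labelled cell type was compared with its markers. Of 11 adrenergic neuroblastoma markers, among them HAND2, GATA3 and MYCN, 9 were listed in both libraries, and TH and DBH only with control siRNA. Of 6 blood and epithelial markers 5 were in neither list, KRT18 being listed only with control siRNA, and all 4 Schwann cell markers were in neither.

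The first comparison asked which splicing factor promoters kept an H3K4me3 call after WDR5 siRNA. Nearly all did. Each of the 67 genes had a call with control siRNA, which follows in part from a rule that draws names from the peak lists. Of these, 66 were also listed with WDR5 siRNA, and PRPF40B was the single gene listed only with control siRNA. No splicing factor gene was listed only with WDR5 siRNA, a class that held 0.817% of all WDR5 siRNA names. The control-only share was 1.49% (1 of 67, exact Clopper-Pearson 95% interval over genes 0.0378 to 8.04%), against 13.5% of all names with a control peak. The interval covers the number of genes only and neither library nor replicate error.

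**Figure D1:**
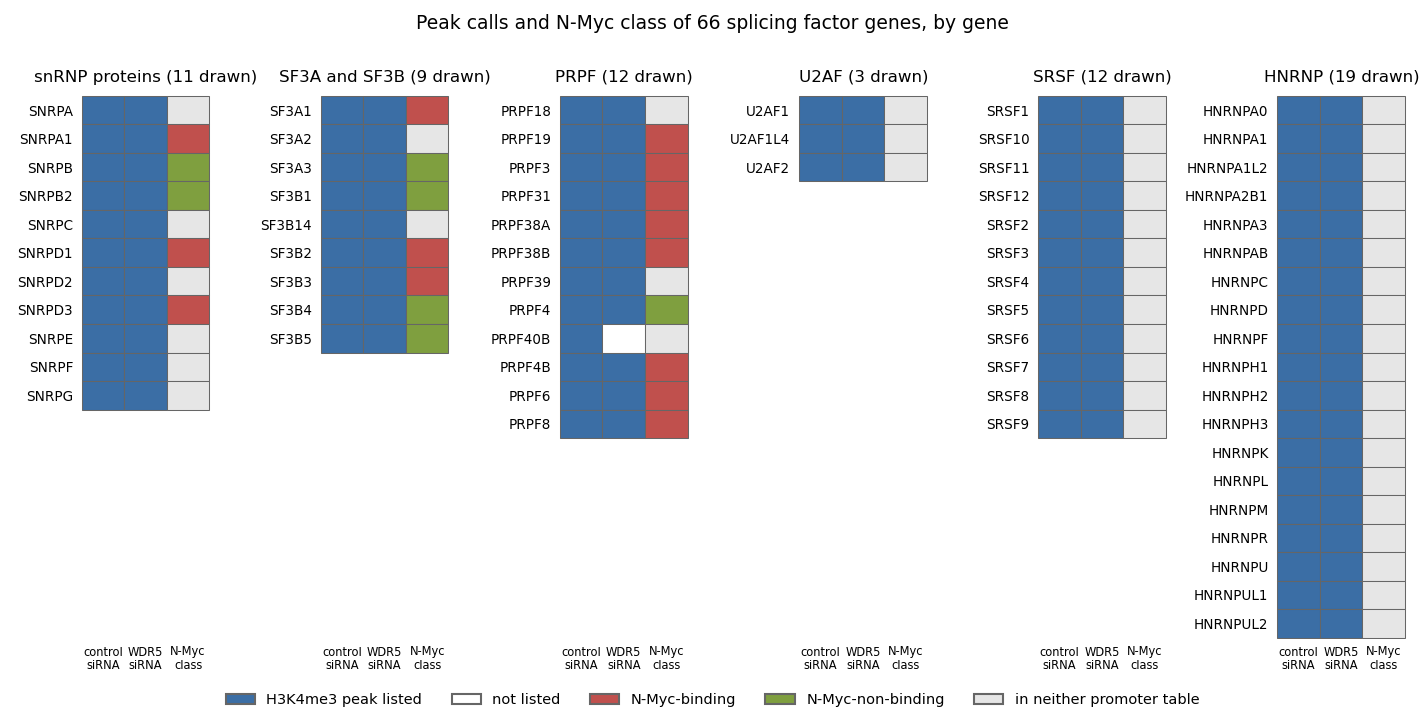
Each row is 1 of 66 splicing factor genes, grouped by family, with the first 2 columns showing whether an H3K4me3 peak was listed with control siRNA and with WDR5 siRNA and the third showing the N-Myc class of its promoter. The single white cell is PRPF40B with WDR5 siRNA, and no U2AF, SRSF or HNRNP gene has an N-Myc class.

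All 11 genes for the proteins of the small nuclear ribonucleoprotein particles (snRNPs) were listed in both libraries. SNRPA and SNRPC encode U1 proteins, and SNRPA1 and SNRPB2 encode U2 proteins. SNRPB, SNRPD1, SNRPD2, SNRPD3, SNRPE, SNRPF and SNRPG encode the Sm proteins that form a ring on the small nuclear RNAs. The 9 genes of the SF3A and SF3B complexes, which hold the U2 particle at the branch site, were also listed in both. They were SF3A1, SF3A2, SF3A3, SF3B1, SF3B2, SF3B3, SF3B4, SF3B5 and SF3B14, the last an older name of SF3B6.

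Of 13 PRPF genes, 12 were listed in both. PRPF8 encodes the large U5 scaffold of the catalytic centre, PRPF3, PRPF4, PRPF6 and PRPF31 encode proteins of the joined U4, U5 and U6 particles, and PRPF19 encodes a ubiquitin ligase of the active spliceosome. PRPF18, PRPF38A, PRPF38B, PRPF39 and the kinase gene PRPF4B were likewise in both lists. PRPF40B, a relative of the yeast U1 protein Prp40, lacked a call with WDR5 siRNA. Its surroundings kept theirs. The control list follows the genome's order, and the 5 names before PRPF40B (C1QL4, DNAJC22, SPATS2, KCNH3 and MCRS1) and the 5 after it (FMNL3, TMBIM6, NCKAP5L, BCDIN3D-AS1 and BCDIN3D) were all listed in both libraries.

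U2AF1 and U2AF2, whose products recognise the end of the intron, and their relative U2AF1L4 were listed in both. U2AF1L4 had 2 rows in each list and was counted once. The 12 SRSF genes, SRSF1 to SRSF12, encode the SR proteins that bind exonic enhancers, and all were listed in both. The 19 HNRNP genes were also all in both. They included HNRNPA1, HNRNPA2B1, HNRNPC, HNRNPK, HNRNPL and HNRNPU, which encode abundant proteins of nascent RNA, and HNRNPA1L2, a retrocopy relative of HNRNPA1.

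The names were set against RefSeq symbols. All 67 matched, 65 as current symbols and SF3B14 and PRPF4B as older names. A further pair of genes stood in the lists under older names that the rule did not take, HNRPLL and HNRPDL, and both were listed in both libraries. Of 73 protein-coding RefSeq symbols that meet the rule, 5 occurred in none of the files used here, namely HNRNPA1L3 and HNRNPCL1 to HNRNPCL4. None of 212 pseudogene symbols of the same families occurred in them.

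The genes next to the splicing factors in the control list were read in the same way. Of 134 neighbouring names, 1 before and 1 after each gene, 9 were listed only with control siRNA (6.72%), against 13.5% of all control names. HNRNPA0 was flanked on both sides by such names, KLHL3 and PKD2L2. The others were AXL beside HNRNPUL1, HENMT1 beside PRPF38B, RAB4B beside SNRPA, GGT1 beside SNRPD3, SOX13 beside SNRPE, NTN4 beside SNRPF and GALM beside SRSF7. In each of these 8 places the splicing factor gene itself was in both lists.

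Other splicing genes showed a similar share. A list of 163 genes outside the name rule had 145 with a control peak, and 3 of them were control-only (2.07%, interval 0.429 to 5.93%). These were SMN2, which encodes the survival of motor neuron protein that assembles snRNPs, ELAVL2, a neuronal RNA-binding protein gene, and ESRP2, an epithelial splicing regulator gene. SMN2 has a nearly identical copy, SMN1, which was in neither list, so reads of the pair may not be told apart. All 33 U1, U2 and tri-snRNP associated genes with a control peak (SF1, DDX46, EFTUD2 and SNRNP200 among them) were in both lists, as were all 25 genes of the PRPF19 and catalytic complexes, 11 LSM genes, 9 minor spliceosome genes and 6 exon junction complex genes. The list of SR-related and regulatory genes had 12 of 58 members in neither list. They were CELF1, CELF2, ELAVL4, ESRP1, KHDRBS2, MBNL1, MBNL2, MBNL3, RBFOX1, RBFOX3, RBM4 and SRPK3. Over all names in the files, 2785 of 16500 were in neither peak list. These counts are not alike, since a gene of the SR-related list can be absent from every file. Regulators known from neurons were found on both sides, since CELF3, CELF4, ELAVL3, NOVA1, NOVA2, PTBP2 and SRRM4 were listed in both libraries. The other unlisted genes were LSM8, CRNKL1, ISY1, SMN1, LUC7L2 and ZRSR1. For an unlisted gene, absence of a peak cannot be told apart from a different name in the annotation. CRNKL1, ELAVL4, KHDRBS2, MBNL1 and MBNL3 did stand under these names in the non-binding promoter table.

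Further groups of widely used genes were set beside these. Among cytosolic ribosomal protein genes 1 of 74 with a control peak was control-only (RPL39L, 1.35%, interval 0.0342 to 7.3%). Among translation factor names 1 of 59 was (EIF4EBP3, 1.69%, interval 0.0429 to 9.09%). This group was taken by names that begin with EIF or EEF and a digit, and not by function. The intervals of all 4 groups overlapped, so the splicing factor genes could not be set apart from these groups by this measure.

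**Figure D2:**
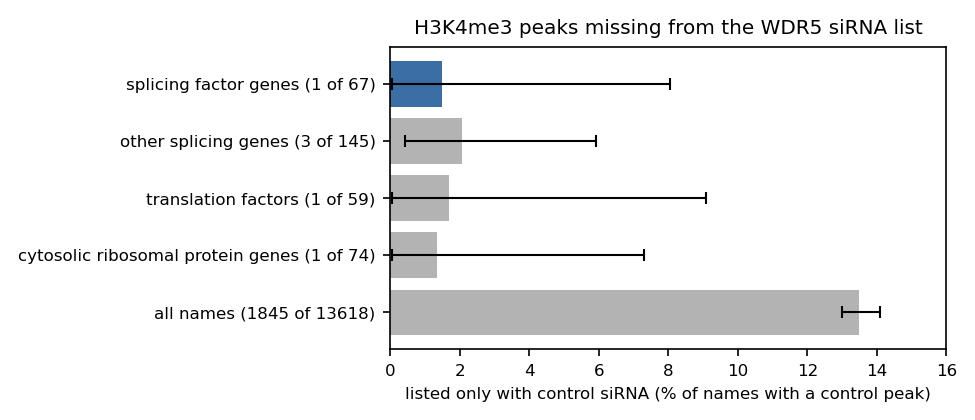
Bars give the percentage of names with a control peak that were listed only with control siRNA, with the number of such names and of control names in brackets and exact 95% intervals over genes as lines. The 4 gene groups lie between 1.35% and 2.07%, below the 13.5% of all names.

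The second comparison asked how the splicing factor promoters were divided between the N-Myc classes. Only 22 of the 67 genes had a row in either promoter table, against 49.7% of all names with a control peak. The absent genes fell by family. None of the 34 U2AF, SRSF and HNRNP genes was in a table, whereas 22 of the 33 snRNP, SF3A, SF3B and PRPF genes were. The N-Myc class of these 34 U2AF, SRSF and HNRNP genes therefore cannot be given here, and no older symbol of theirs occurred in the tables. The sources used here do not say how N-Myc binding was decided or how promoters were chosen for the tables.

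Of the 22 promoters with a class, 15 were N-Myc-binding (68.2%) and 7 non-binding. The share of N-Myc-binding promoters was 33.9% over all promoters and 45.7% over promoters whose gene had a control peak. With genes in neither table also counted, 22.4% of the 67 splicing factor genes were N-Myc-binding, against 22.7% of all names with a control peak and 19.7% of all names in the files. Of 10 PRPF promoters 9 were N-Myc-binding, and PRPF4 was the exception. Without the PRPF genes, a setting added after the data were seen, 50% of 12 promoters were N-Myc-binding. Values for the comparison groups were 59.8% of 92 promoters for the other splicing genes, 81.6% of 38 for translation factors and 98.3% of 58 for cytosolic ribosomal protein genes.

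Subunits of one complex were divided between the classes. In SF3B, the complex that contacts the branch site, SF3B2 (chromosome 11, start at position 65819816 on hg19) and SF3B3 (chromosome 16, 70557691) were N-Myc-binding. SF3B1, which encodes its largest subunit (chromosome 2, 198299771), SF3B4 (chromosome 1, 149900144) and SF3B5 (chromosome 6, 144416754) were non-binding. In SF3A, SF3A1 (chromosome 22, 30752913) was N-Myc-binding and SF3A3 (chromosome 1, 38455761) was not. The U2 protein genes were divided too, with SNRPA1 (chromosome 15, 101835460) binding and SNRPB2 (chromosome 20, 16710609) non-binding. Of the Sm protein genes, SNRPD1 (chromosome 18, 19192260) and SNRPD3 (chromosome 22, 24951618) were binding and SNRPB (chromosome 20, 2451499) was non-binding.

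The N-Myc-binding PRPF promoters were spread over the genome. PRPF3, PRPF38A and PRPF38B started on chromosome 1 at positions 150293928, 52870219 and 109234932. PRPF4B started on chromosome 6 at 4021569, PRPF19 on chromosome 11 at 60674061 and PRPF8 on chromosome 17 at 1588176. PRPF31 started on chromosome 19 at 54618790 and PRPF6 on chromosome 20 at 62612431. The non-binding PRPF4 started on chromosome 9 at 116037914. All positions are on hg19.

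Within each N-Myc class every splicing factor gene kept its call. All 15 N-Myc-binding and all 7 non-binding genes were listed in both libraries. Over all promoters with a control peak, 4.18% of N-Myc-binding and 17.9% of non-binding ones were control-only. Groups of 15 and 7 genes are too small to be set apart from these shares. Among the 45 splicing factor genes without a class PRPF40B alone was control-only, against 15.5% of all control names without a class.

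Of the 22 promoters, 4 lay within 1 kb of another promoter of the tables, and each pair shared its class and was listed in both libraries. PRPF4 started 45 bp from CDC26, a subunit gene of the anaphase-promoting complex, and both were non-binding. The other pairs were all N-Myc-binding, among them SF3B3 at 234 bp from COG4 and PRPF31 at 265 bp from TFPT. At these 4 places a peak within 1 kb cannot be assigned to 1 gene of the pair. The same may hold for the N-Myc class, and the share of same-class pairs among all close promoters was not counted. The nearest other promoter in the tables to the N-Myc-binding PRPF3 and to the non-binding SF3B4, SF3B5, SNRPB and SNRPB2 lay 8647 to 87213 bp away and its gene had no listed peak in either library.

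What the row order of the promoter tables stands for is unknown, and the place of each gene in it is given as a description. SNRPD3 stood at row 129 of the N-Myc-binding table (3.96% of its length), ahead of every other splicing factor gene. SF3B2 (row 765), SNRPA1 (row 810), PRPF38B (row 837) and SF3B3 (row 1007) followed. The last 5 were PRPF19 (row 2159), PRPF6 (row 2424), SNRPD1 (row 2442), PRPF3 (row 2645) and PRPF38A (row 2717). The 15 genes had a median position of 43.9% and reached 83.5%, and the 2958 N-Myc-binding promoters listed in both libraries had a median of 45.6%. In the non-binding table the 7 genes lay between 14.3% (SF3B1, row 903) and 34.5% (SNRPB, row 2187). In between stood SF3B4 (row 1132), PRPF4 (row 1248), SNRPB2 (row 1678), SF3B5 (row 1726) and SF3A3 (row 1911). Their median of 26.5% was near the 23.9% of all 3019 non-binding promoters listed in both, and all 7 lay between that group's quartiles of 11.9% and 36%.

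**Figure D3:**
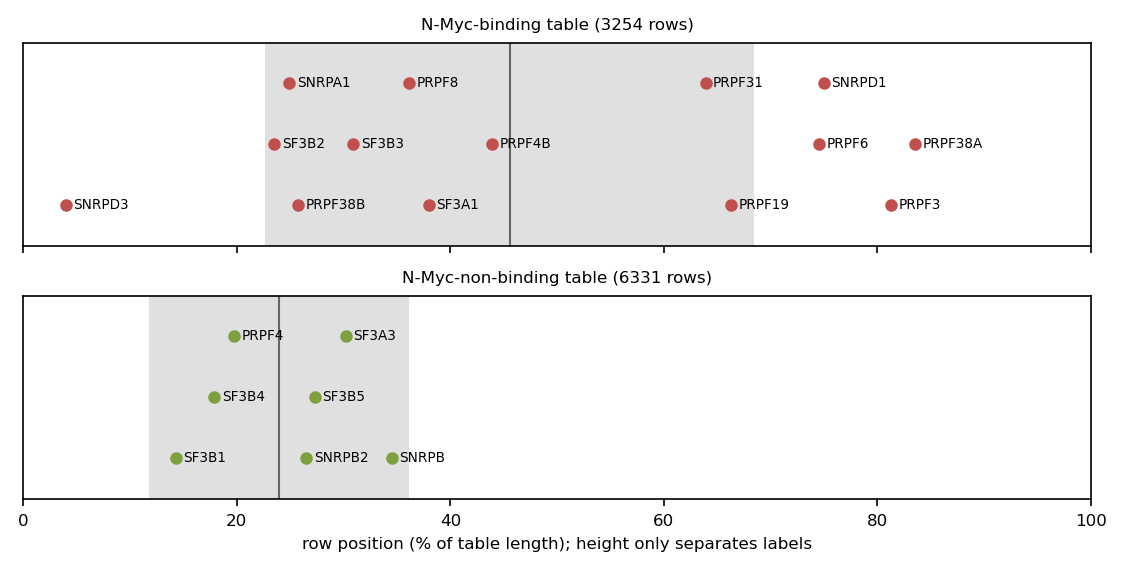
Points give the row position of 21 splicing factor promoters as a percentage of the table length (horizontal axis), with the height used only to separate names. Grey bands show the quartiles and the line the median of all promoters of the table listed in both libraries, and in the N-Myc-binding table SNRPD3 at 3.96% stands ahead of the band of 22.7% to 68.3% while PRPF6 (74.5%), SNRPD1 (75%), PRPF3 (81.3%) and PRPF38A (83.5%) stand past it.

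The promoter sequences themselves were read next, since N-Myc with its partner MAX binds the E-box CACGTG. RefSeq windows of 250 bases before to 50 bases after a start (GRCh38.p14) were at hand for 60 of the 67 genes, in 79 windows, because some genes have several starts. Genes with no window included HNRNPA1, PRPF3, PRPF39, SF3B3, SNRPD1 and SRSF2. Positions below count from the RefSeq start, with -1 the base before it. The following 4 promoters, each 250 bases before the start and written 5′ to 3′ on the gene's strand, show the gene that lost its call (PRPF40B), SF3B subunits of opposite N-Myc class (SF3B1 and SF3B2) and the gene with a pair of E-boxes (HNRNPH2). Capitals mark every match, on either strand, of 5 motifs, the E-box CACGTG, the NF-Y box CCAAT, the GC box GGGCGG, the ETS motif CCGGAAG and the TATA box TATAAA, which do not overlap one another in these stretches.

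PRPF40B, chr12:49623311-49623560, plus strand: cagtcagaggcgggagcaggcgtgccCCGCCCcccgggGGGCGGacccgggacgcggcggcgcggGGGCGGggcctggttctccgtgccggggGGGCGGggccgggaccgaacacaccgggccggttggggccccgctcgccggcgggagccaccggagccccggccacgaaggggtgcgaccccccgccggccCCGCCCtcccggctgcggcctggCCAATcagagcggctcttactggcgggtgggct

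SF3B1, chr2:197435029-197435278, minus strand: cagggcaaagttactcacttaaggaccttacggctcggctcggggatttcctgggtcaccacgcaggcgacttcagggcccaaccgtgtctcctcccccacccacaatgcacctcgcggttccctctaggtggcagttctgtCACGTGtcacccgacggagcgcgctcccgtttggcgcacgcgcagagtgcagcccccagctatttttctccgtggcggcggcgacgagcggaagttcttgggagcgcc

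SF3B2, chr11:66052114-66052363, plus strand: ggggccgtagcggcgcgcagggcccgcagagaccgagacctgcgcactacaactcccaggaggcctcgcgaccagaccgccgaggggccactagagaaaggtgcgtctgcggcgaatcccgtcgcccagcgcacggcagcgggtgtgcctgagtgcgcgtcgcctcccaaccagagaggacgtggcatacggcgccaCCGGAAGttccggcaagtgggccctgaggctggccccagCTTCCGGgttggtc

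HNRNPH2, chrX:101407972-101408221, plus strand: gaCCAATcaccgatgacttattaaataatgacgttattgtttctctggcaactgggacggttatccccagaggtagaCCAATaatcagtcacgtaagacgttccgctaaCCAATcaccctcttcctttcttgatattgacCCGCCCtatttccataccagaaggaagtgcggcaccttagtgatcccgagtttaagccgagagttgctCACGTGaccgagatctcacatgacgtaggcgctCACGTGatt

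The PRPF40B promoter held GC boxes starting at -224, -212, -185, -157 and -56 and an NF-Y box at -33. Its window had a G and C content of 80.3%, the highest of the 79 windows, whose median was 62%. The next highest windows, of SRSF12 (77%) and U2AF1 (75.7%), belonged to genes listed in both libraries. The SF3B1 window held 1 E-box, at -108 in the window printed, and none of the other motifs. SF3B2 held none of these but had ETS motifs at -53 and, on the other strand, at -14. HNRNPH2 held E-boxes at -42 and -9, NF-Y boxes at -248, -173 and -141 and a GC box at -110.

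The E-box occurred in 8 of the 79 windows (10.1%), from 7 genes, against 7.26% of all 35116 RefSeq windows and 9.46% of windows of genes with a control peak. Apart from SF3B1, the genes with an E-box were HNRNP genes. Each E-box follows within 30 bases of sequence, with the E-box in capitals, the position of its first base in brackets and GRCh38.p14 coordinates.

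HNRNPA3 (-71), chr2:177212711-177212740, plus strand: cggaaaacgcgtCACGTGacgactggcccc

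HNRNPD (-27), chr4:82374001-82374030, minus strand: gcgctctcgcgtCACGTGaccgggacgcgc

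HNRNPH2 (-42), chrX:101408168-101408197, plus strand: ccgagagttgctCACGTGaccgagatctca

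HNRNPH2 (-9), chrX:101408201-101408230, plus strand: gacgtaggcgctCACGTGattactcgctta

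HNRNPH3 (-50), chr10:68331631-68331660, plus strand: tgccggtcgaacCACGTGgggccctttccg

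HNRNPM (-42), chr19:8444921-8444950, plus strand: gttgcgtcgggtCACGTGggcgcgcaggcg

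HNRNPUL1 (24), chr19:41262568-41262597, plus strand: aacctctgggccCACGTGagtgtctgtccc

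SF3B1 (-108), chr2:197435119-197435148, minus strand: tggcagttctgtCACGTGtcacccgacgga

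The E-boxes were then set beside the N-Myc class. None of 12 windows from 11 N-Myc-binding splicing factor genes held CACGTG, against 13.9% of all windows of N-Myc-binding promoters. SF3B1, the one gene with both an E-box and a class, was in the non-binding table, where 5.88% of all windows held an E-box. Its E-box lay in both of its overlapping windows. The 6 HNRNP genes with an E-box had no class. A match within these windows is a description of the letters and not a binding site, and the RefSeq start can differ from the start in the tables.

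The other motifs differed between families in number. ETS motifs, the sites of a family of factors common at promoters of widely expressed genes, occurred in 9 of 15 snRNP protein windows and 6 of 9 SF3A and SF3B windows, but in 2 of 28 HNRNP windows. They occurred in 29.1% of all 79 windows, against 10.3% of all RefSeq windows and 16.8% of those of genes with a control peak. NF-Y boxes occurred in 17 of 28 HNRNP windows and 7 of 10 PRPF windows, but 1 of 9 SF3A and SF3B windows. These motifs did not run opposite in every family. The 14 SRSF windows had few of either, with ETS motifs in 2 and NF-Y boxes in 3. Of 10 PRPF windows 3 held an ETS motif, and of 3 U2AF windows 1 held an ETS motif and 0 an NF-Y box. Over the 79 windows the share with an NF-Y box was 40.5%, against 34.6% of all windows and 34.4% of those of genes with a control peak. GC boxes were in 54.4% of the windows, between the 45% of all windows and the 69.1% of those of genes with a control peak. The TATA box was in 8 windows (10.1%, against 11.5% of all and 5.5% of those of genes with a control peak). Windows of 1 gene can overlap and are not independent.

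**Figure D4:**
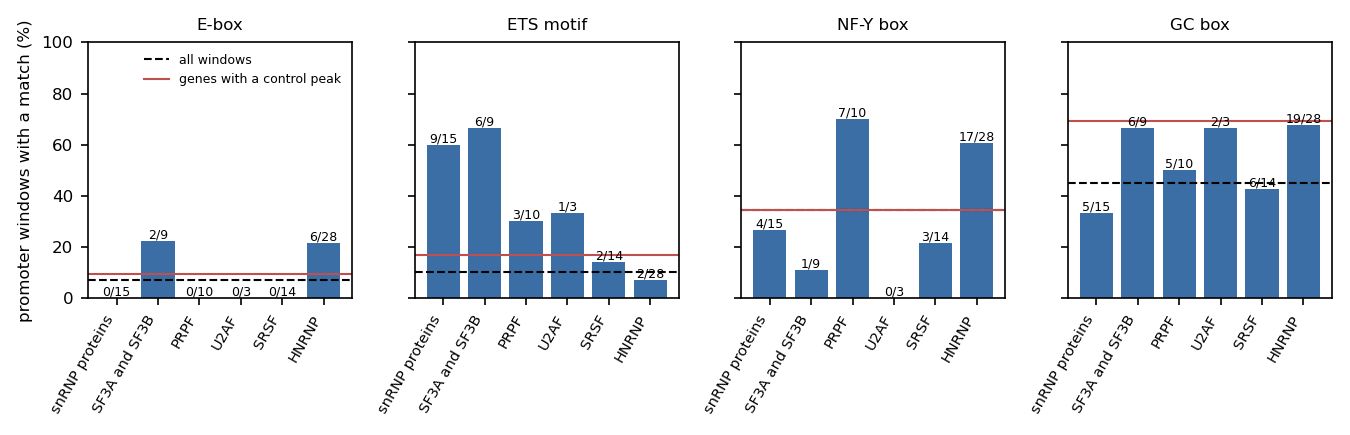
Bars give the percentage of promoter windows in each splicing factor family that hold a match to 1 of 4 motifs, with the number of windows above each bar. The dashed line marks all RefSeq windows and the red line windows of genes with a control peak, and the ETS motif is most frequent in the SF3A and SF3B (6 of 9) and snRNP (9 of 15) windows and least frequent in HNRNP windows (2 of 28).

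Matches to the E-box and the ETS motif had medians nearer to the start than those of the other motifs. Of 9 E-box matches, counting SF3B1 in each of its windows, 7 began within the last 100 bases before the start, 1 farther upstream and 1, in HNRNPUL1, at 24 bases past it. Their median first base was -42. Of 30 ETS matches 18 began within the last 100 bases, with a median of -62. Of 51 NF-Y matches 26 did, with a median of -83, and of 87 GC box matches 36 did, with a median of -97. Matches shared by overlapping windows of 1 gene, such as an ETS match of SNRPG, were likewise counted in each window. Match positions were not counted over other RefSeq windows. Nearness to the start therefore cannot be called a trait of the splicing factor genes.

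**Figure D5:**
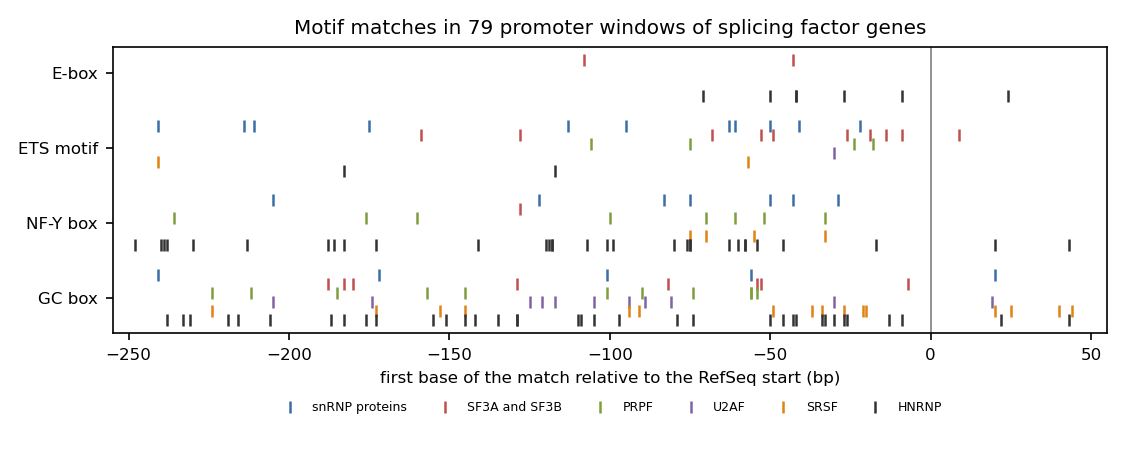
Each tick is 1 motif match in a promoter window, placed by the distance of its first base from the RefSeq start (horizontal axis, in bp) and coloured by family. E-box ticks lie mainly within 100 bp before the start (7 of 9), and GC box ticks spread over the whole window (36 of 87 within 100 bp).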

How the data were processed

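H3K4me3 ChIP-seq libraries of BE(2)-C cells, 1 per siRNA, were compared. The IgG and input libraries, 1 of each per siRNA, were not used here. BWA 0.7.12, bedtools and the build hg19 are named in the submitters' processing notes, with no role stated. The peak caller and its threshold: not given in the sources used here. The deposited files hold gene names and start positions in no measured unit, and peaks lay within 1 kb of a start, per the file headers. The depth is unknown.

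Repeated names were counted once per list, classed as both, control only, WDR5 siRNA only or neither, and joined to the promoter tables by name. The join cannot separate several starts of 1 gene. The genes of the rule were described by family, with all exceptions named, and 1 gene that counts in the totals is not reported here by itself. Further names followed rules on calls, class and row order. The genes and lists were chosen with earlier results of these data known. Sequences came from RefSeq (GRCh38.p14) and motifs were searched on both strands. Counting and motif code was tested on simulated data. Intervals are exact 95% (Clopper-Pearson). Python 3.11.15, pandas 2.3.3, scipy 1.17.1 and matplotlib 3.10.9 were used.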

Additional observations from a re-analysis of the deposited data

How the results depend on the processing

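The number of control-only splicing factor genes was 1 under all 5 alternatives tried. These were single-row names, older names added, and pseudogene and read-through names left out (none was present). The others left out genes within 1 kb of another promoter, and counted rows in place of names. Distances were known only for the 22 genes in a promoter table, and only to other promoters there. PRPF40B has 1 row in the control list and is in neither promoter table. Only the added older names could therefore have changed the count. The count of rows, the count without PRPF genes and the count of 1 window per gene were chosen after the data were seen. With the 22 genes in a promoter table as denominator the control-only share was 0%, because PRPF40B is in neither table. With all 67 genes as denominator the N-Myc-binding share was 22.4%, because 45 genes have no class, against 22.7% of all names with a control peak and 19.7% of all names in the files on the same denominator, and it was 66.7% without the genes within 1 kb of another promoter. With CATGTG and CGCGTG also accepted as E-boxes, 38% of the 79 windows held one, against 27.2% of all windows, because more sequences match. The E-box share was 8.86% with bases before the start only (6.34% of all windows) and 11.7% with 1 window per gene (7.43% of all). These E-box settings were set beside all windows only, and not beside windows of genes with a control peak. No paired analysis was possible because each siRNA has 1 H3K4me3 library, and for the same reason no replicate could be left out. Without depth or peak heights, an unlisted gene may still carry the mark, and a gene listed with both siRNAs may differ in level between them.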
